A study of Homo sapiens with 8 samples.

Results

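The 10 genes described here were EGF family ligands (HBEGF, AREG, EREG, TGFA and NRG1), ERBB receptors (EGFR, ERBB2 and ERBB3), the receptor inhibitor ERRFI1 and the sheddase ADAM17. They were taken by symbol from the 21059 genes of a table of normalized expression values, and all 10 were found in it. Transcripts were measured by RNA-Seq in MDA-MB-157, an established human breast cancer line recorded as ER negative. Cells in T25 flasks were kept for 48 hours in medium with 5 mM glucose (low glucose, 4 replicates) or 25 mM glucose (high glucose, 4 replicates). According to the study's methods, the medium of both groups held no serum and all cells were conditioned in low glucose medium beforehand. The study used the higher concentration to model hyperglycemia, and the labels of these 8 libraries name no osmotic control. The labels do not say whether the replicates were separate cultures, so p-values measure the spread between these samples, which may be technical.

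EGF family ligands are made as membrane-anchored precursors. Metalloproteases such as ADAM17 release the soluble growth factor, which binds EGFR, ERBB3 or ERBB4 and brings receptors together in pairs. ERBB2 has no known ligand and acts as a partner for the other receptors, and ERBB3 signals mainly through such a partner because its own kinase is weak. Active receptors feed the RAS, RAF, MEK and ERK kinases and the PI3K and AKT kinases, and ERRFI1 (also known as MIG6) binds the kinase domain of EGFR and ERBB2 and blocks it. In breast cancer, ERBB2 is best known as the amplified HER2 oncogene, and EGFR is frequently expressed in tumors without estrogen receptor.

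The promoters of 4 ligands and of ERRFI1 are shown because HBEGF, AREG, TGFA and ERRFI1 rose with glucose while EREG, the neighbour of AREG, was at or near 0. The promoter of ADAM17, which also rose, was searched but is not shown. The sequences are the 250 bases before the transcription start in RefSeq (GRCh38.p14), written 5′ to 3′ on the strand of the gene. Capitals mark matches to any of 7 motifs, searched on both strands. AP-1, the site of FOS and JUN proteins, was searched as TGANTCA. The cAMP response element (CRE) was searched as TGACGTCA. The site of ETS factors was searched as CGGAAG, which is also found within longer sites. The GC box, bound by SP1, was searched as GGGCGG, and the E-box, bound by MYC and related factors, as CACGTG. The TATA box was searched as TATAAA, and the CArG box of serum response factor was searched by its full motif. HBEGF lies at chr5:140346604-140346853 on the minus strand, AREG at chr4:74444886-74445135 on the plus strand and EREG at chr4:74364895-74365144 on the plus strand. TGFA lies at chr2:70553827-70554076 and ERRFI1 at chr1:8026310-8026559, both on the minus strand.
HBEGF: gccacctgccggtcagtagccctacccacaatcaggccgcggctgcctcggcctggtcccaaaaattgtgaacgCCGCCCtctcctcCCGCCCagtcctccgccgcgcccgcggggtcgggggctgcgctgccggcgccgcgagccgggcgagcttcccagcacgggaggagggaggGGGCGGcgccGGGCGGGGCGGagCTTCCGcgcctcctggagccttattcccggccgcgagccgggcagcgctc
AREG: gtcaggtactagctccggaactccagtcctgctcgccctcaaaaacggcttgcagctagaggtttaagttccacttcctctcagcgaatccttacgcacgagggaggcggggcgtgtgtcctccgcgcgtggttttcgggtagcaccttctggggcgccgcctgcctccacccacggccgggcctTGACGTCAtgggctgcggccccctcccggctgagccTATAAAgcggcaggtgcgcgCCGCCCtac
EREG: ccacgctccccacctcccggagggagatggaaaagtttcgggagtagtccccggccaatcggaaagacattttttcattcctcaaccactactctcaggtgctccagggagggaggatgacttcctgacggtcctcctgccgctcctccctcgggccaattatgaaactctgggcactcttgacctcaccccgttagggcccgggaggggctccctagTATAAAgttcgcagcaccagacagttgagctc
TGFA: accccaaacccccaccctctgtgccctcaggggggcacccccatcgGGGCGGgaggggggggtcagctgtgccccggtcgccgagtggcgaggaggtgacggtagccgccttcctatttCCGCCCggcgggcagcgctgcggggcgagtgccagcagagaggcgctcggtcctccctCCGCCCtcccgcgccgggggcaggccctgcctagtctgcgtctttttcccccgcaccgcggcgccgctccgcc
ERRFI1: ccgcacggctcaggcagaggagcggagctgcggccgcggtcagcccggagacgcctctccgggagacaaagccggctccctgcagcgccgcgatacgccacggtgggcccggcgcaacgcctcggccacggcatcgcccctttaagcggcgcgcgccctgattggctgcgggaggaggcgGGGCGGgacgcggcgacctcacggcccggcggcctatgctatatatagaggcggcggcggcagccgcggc

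The AREG promoter held a full CRE, the palindrome bound by CREB family factors, which began 65 bases before the start, followed by a TATA box that began 29 bases before it. The CRE was found in 1.65% of 35116 RefSeq promoters of the same length, and among the member windows searched only that of AREG held it. The EREG promoter had a TATA box at a like distance, 32 bases before the start, and no match to any other motif searched. A TATA box was present in 10.7% of all promoters. The HBEGF promoter held 5 GC boxes, of which the last 2 overlapped by a base, and an ETS motif 50 bases before the start. TGFA had 3 GC boxes and ERRFI1 had 1, against 42.6% of all promoters with at least 1 GC box and 16.5% with an ETS motif. Windows were searched for 8 of the 10 members, 10 windows in all, and none of these held an E-box (6.34% of all promoters) or a CArG box (1.16%). AP-1 motifs (6.57%) were present in the ERBB2 window and in the second, internal EGFR window. GC boxes were present in 6 of the 10 windows, among them the first EGFR window. ETS motifs were present in 3, those of HBEGF and ADAM17, which rose, and of ERBB2, which fell. A second TGFA window held no match to any motif. For this window, the ERBB2 window and the second EGFR window, the bases past the start were not found near the start of the canonical transcript. NRG1 and ERBB3 are named only, as no window of theirs was searched. Member windows on chromosome 8, where NRG1 lies, were left out of the search. These matches describe the letters of the windows and no binding was measured.

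Depth was estimated at 9721649 to 12482542 reads a library, and 1 read was worth 0.0706 to 0.0889 CPM (read counts scaled to a common library size). A value of 0 therefore allows a level of up to 3 reads, 0.212 to 0.267 CPM, with counting error as the only error considered. Of 6 mesenchymal markers, 4 fell and 2 rose with glucose. SPARC, the most abundant by CPM, fell from 21387 to 22037 CPM down to 11953 to 12829 CPM, VIM, FN1 and TWIST1 fell as well, and ZEB1 and CDH2 rose (log2 change 0.44 each). Of 8 epithelial markers, 3 fell, among them KRT8 (-0.57) and KRT18 (-0.46), 2 rose (EPCAM, 0.54, and GATA3, 0.90) and 3 did not pass the test. The part of these changes in the levels of the members was not tested. ESR1, the estrogen receptor, did not exceed 0.170 CPM in any library. The leukocyte marker PTPRC stayed at or under 0.178 CPM and LYZ at or under 0.0706 CPM, while the 4 leukocyte markers in the table summed to 10.7 to 14.3 CPM at low and 13.3 to 17.97 CPM at high glucose, mostly CD68, and CD14 was the 1 of these 4 past the test, with 0.801 to 1.58 and 2.76 to 5.79 CPM. The 4 endothelial and adipocyte markers summed to 2.72 to 3.28 and 2.15 to 3.30 CPM, but PECAM1 rose from 0.911 to 1.24 CPM up to 1.51 to 2.84 CPM, while VWF fell from a mean of 1.45 to 0.310 CPM and CDH5 from 0.278 to 0.0206 CPM. High glucose replicate 1 stood apart. Long transcripts were taken as the 1044 of at least 8000 bases, from genes with a mean of at least 5 CPM. Their median log2 deviation in high glucose replicate 1 from the mean of its 3 fellow replicates was -0.29. It was 0.07 to 0.16 in those and -0.03 to 0.02 at low glucose.

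Of the 10 members, 5 rose with glucose (HBEGF, AREG, TGFA, ERRFI1 and ADAM17), 1 fell (ERBB2) and 4 did not pass the test (EREG, NRG1, EGFR and ERBB3). Tests were made with limma on log2(CPM + 1), with Benjamini-Hochberg adjustment over all 21059 genes and a threshold of 0.05. At that threshold 46.8% of all genes were called, 22.0% higher and 24.8% lower, and among genes with a mean of at least 1 CPM the share was 62.1%. Of the 5 members at or above that mean, 4 were called. The share of members called lay near this background and is not itself a result about the members. The libraries of the groups did not overlap for 7 members, which was also the case for 44.5% of all genes and 60.0% of those with a mean of at least 1 CPM.

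**Figure D1:**
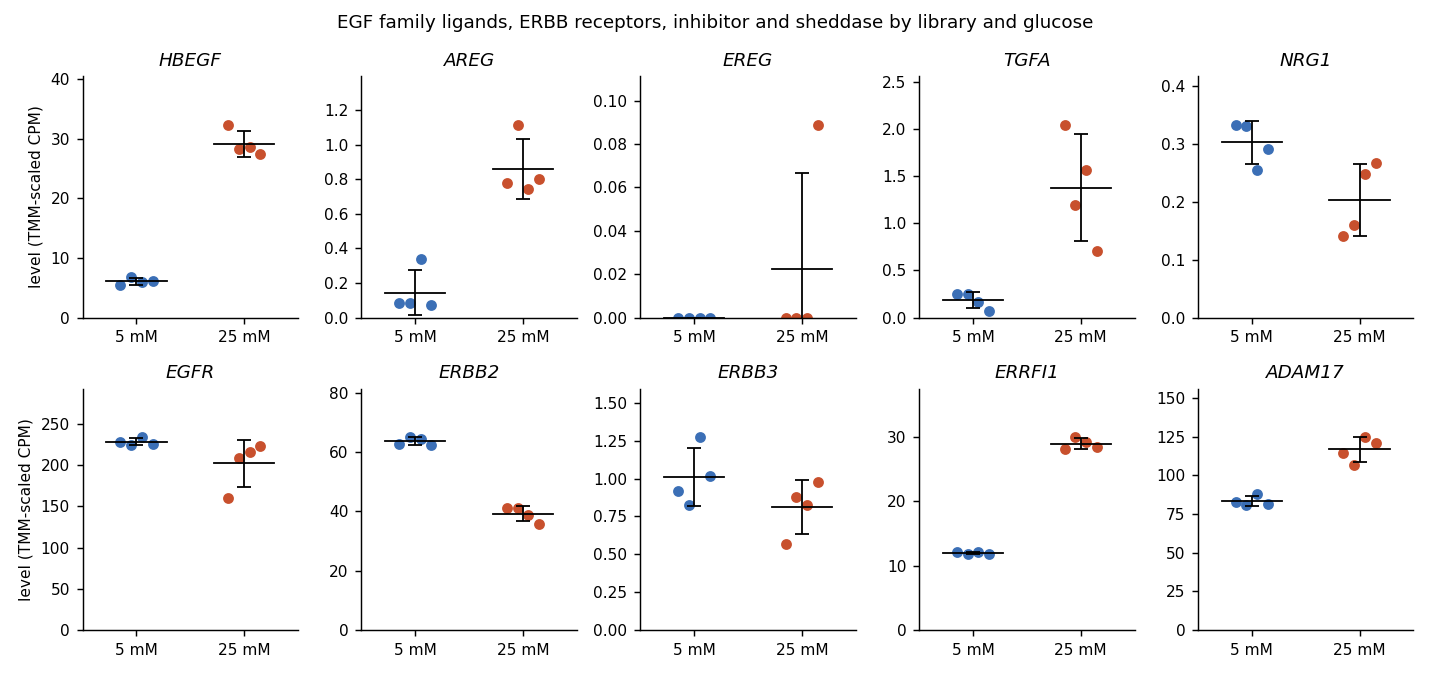
Levels of the 10 members in TMM-scaled CPM (vertical axis, linear from 0, a scale of its own for each gene) in the 4 libraries at 5 mM and the 4 at 25 mM glucose. Points are libraries in replicate order from left to right, long bars are means and error bars are SD. HBEGF moved from 5.42 to 6.87 CPM up to 27.4 to 32.3 CPM, ERBB2 moved down without overlap, and the spread of EGFR at 25 mM came mainly from replicate 1.

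HBEGF (ENSG00000113070.8) encodes heparin-binding EGF-like growth factor, a ligand of EGFR and ERBB4 that is also retained at the cell surface by heparan sulfate. Its 6-exon gene lies on chromosome 5, 139712428 to 139726188, on the minus strand (GENCODE release 44 on GRCh37, as for the positions that follow). The low glucose libraries held 5.42, 6.87, 5.95 and 6.19 CPM and the high glucose libraries 32.3, 28.2, 28.6 and 27.4 CPM. Every high glucose library was thus far above every low glucose library, and the replicates of each group lay close together. The means were 6.11 ± 0.605 and 29.1 ± 2.19 CPM (SD, n = 4 each), a 4.77-fold difference. The log2 change was 2.09 (SE 0.0781, limma, adjusted p = 2.76e-06). This was the largest log2 change of the members with a pseudocount of 1, but not with a pseudocount of 0.1, where TGFA was at 2.34 and HBEGF at 2.24, or with voom weights, where TGFA was at 2.71, AREG at 2.49 and HBEGF at 2.25. The reads behind it, 303 at low and 1467 at high glucose, gave a ratio of 4.79 with a 95% interval of 4.23 to 5.44 for counting error only. As for all members in these bulk samples, a change in cells with the transcript and a change per cell cannot be told apart.

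AREG (ENSG00000109321.11) encodes amphiregulin, a lower-affinity EGFR ligand that is released by ADAM17 and is a known target of estrogen and of cAMP signaling. The gene lies on chromosome 4, 75310853 to 75320722, on the plus strand. At low glucose the 4 libraries held 0.0834, 0.0828, 0.340 and 0.0728 CPM, which are 1, 1, 4 and 1 reads. At high glucose they held 0.776, 1.12, 0.742 and 0.800 CPM, which are 11, 14, 9 and 9 reads. The groups did not overlap, although the level was low in both. AREG rose by 0.70 on the log2(CPM + 1) scale (SE 0.0944, limma, adjusted p = 0.00077), a scale that compresses changes at such levels. The 7 reads at low and 43 reads at high glucose gave a ratio of 6.08 with a 95% counting interval of 2.71 to 16.0. In the annotation 97.4% of the 31-base words of AREG also occur in AREGB, a near-identical copy on GRCh37, so how reads were divided between copies could have affected the level.

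TGFA (ENSG00000163235.16) encodes transforming growth factor alpha, a high-affinity ligand of EGFR. It lies on chromosome 2, 70674416 to 70781325, on the minus strand. At low glucose the libraries held 0.250, 0.248, 0.170 and 0.0728 CPM, from 3, 3, 2 and 1 reads. At high glucose they held 2.05, 1.20, 1.57 and 0.711 CPM, from 29, 15, 19 and 8 reads. No library overlapped with the other group, but the high glucose libraries were widely spread, with replicate 1 highest and replicate 4 lowest. Replicates 1 and 4 were also the libraries with the lowest and the highest deviation of long transcripts, and after removal of the length trend the log2 change was 0.97. As measured, TGFA rose by 0.98 (SE 0.171, limma, adjusted p = 0.00276). The 9 and 71 reads gave a ratio of 7.81, with a 95% counting interval of 3.89 to 17.8.

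EREG (ENSG00000124882.4), encoding the EGFR and ERBB4 ligand epiregulin, was at 0 in 7 libraries and at 0.0889 CPM, 1 read, in high glucose replicate 4. No fold is given, since both groups were under the value of 3 reads, and the test was not passed (log2 change 0.03, limma, adjusted p = 0.437). NRG1 (ENSG00000157168.19) encodes neuregulin 1, the main ligand of ERBB3 and ERBB4. It was at 0.333, 0.331, 0.255 and 0.291 CPM at low glucose and at 0.141, 0.159, 0.247 and 0.267 CPM at high glucose. These levels rest on 2 to 4 reads a library, and the highest high glucose library overlapped with the lowest low glucose library. The log2 change of NRG1 was -0.12 (SE 0.0408, limma, adjusted p = 0.0540), and its read ratio of 0.660 had a 95% counting interval of 0.265 to 1.57, so a difference was not detectable at this depth. Without high glucose replicate 4 the value was -0.14 (adjusted p = 0.0291), past the threshold. Other annotated transcripts overlap NRG1 on the same strand, and 16.9% of its 31-base words also occur in other genes.

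Of the EGF family genes that are not members, EGF, the founding member, fell from 1.97 to 1.31 CPM on average (log2 change -0.36, limma, adjusted p = 0.0297), and its libraries did not overlap. NRG2, a neuregulin, rose from 1.40 to 2.67 CPM (0.58, adjusted p = 0.0411), but its high glucose libraries ranged from 1.40 to 3.53 CPM and overlapped with the low glucose range of 1.31 to 1.44 CPM. BTC and NRG4 did not pass the test, and EPGN, NRG3 and the receptor ERBB4 were at 0 in all 8 libraries. EPGN, EREG, AREG and BTC lie along chromosome 4 in this order, with 48355 bases between EPGN and EREG, 56386 between EREG and AREG and 349246 between AREG and BTC. Within this stretch of ligand genes, AREG was past the test, EREG and BTC were not, and EPGN was at 0 throughout.

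ERBB2 (ENSG00000141736.13) encodes the HER2 receptor and lies on chromosome 17, 37844167 to 37886679, on the plus strand. The low glucose libraries held 62.7, 65.0, 64.4 and 62.4 CPM and the high glucose libraries 41.2, 41.1, 38.8 and 35.7 CPM. All 4 high glucose libraries were well under the lowest low glucose library. The mean fell from 63.6 ± 1.29 to 39.2 ± 2.58 CPM (SD, n = 4 each), a 1.62-fold difference, and the log2 change was -0.69 (SE 0.0472, limma, adjusted p = 3e-05). Its exons overlap those of MIEN1 and PGAP3 on the opposite strand, and whether the counting used the strand is not given for this table. MIEN1 was at 18.8 to 21.2 CPM at low and 19.9 to 29.2 CPM at high glucose, and PGAP3 at 6.58 to 7.94 and 3.02 to 4.94 CPM.

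EGFR (ENSG00000146648.18) encodes the EGF receptor and lies on chromosome 7, 55086710 to 55279321, on the plus strand. It held 229, 225, 234 and 226 CPM at low glucose and 160, 209, 216 and 224 CPM at high glucose. The groups did not overlap, but the highest high glucose library (223.6 CPM) was only just under the lowest low glucose library (224.7 CPM), and high glucose replicate 1 lay far under the other 3. The means were 228 ± 4.24 and 202 ± 28.7 CPM (SD, n = 4 each). EGFR was not past the threshold, with a log2 change of -0.19, a 95% interval of -0.43 to 0.05 and an adjusted p of 0.184 (limma). Without high glucose replicate 1 the change was -0.08 (adjusted p = 0.0530), and with the trend of each library on transcript length removed it was -0.18 (adjusted p = 0.00539), past the threshold. EGFR passed in this 1 of 19 alternatives.

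**Figure D2:**
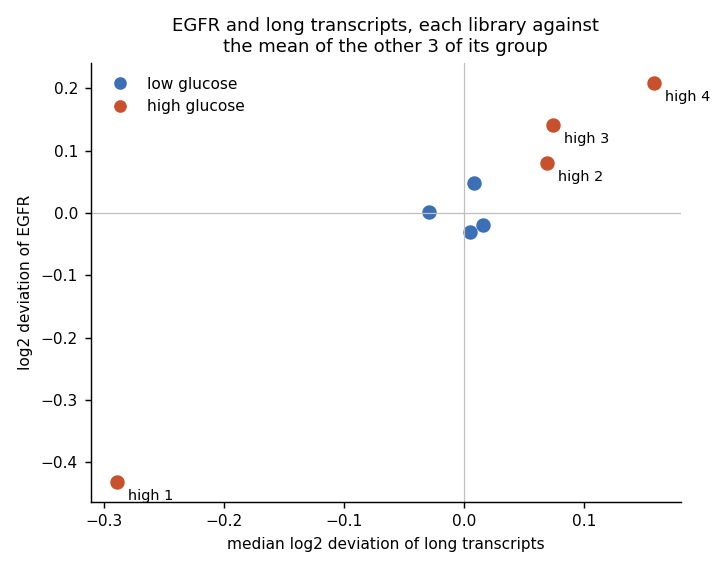
Log2 deviation of EGFR (vertical axis) against the median log2 deviation of the 1044 transcripts of at least 8000 bases (horizontal axis) in each library, taken from the mean of the other 3 libraries of its group. These transcripts were of genes with a mean of at least 5 CPM. The 4 high glucose libraries stood in the same order on both axes, from -0.29 and -0.43 in replicate 1 to 0.16 and 0.21 in replicate 4, and the 4 low glucose libraries (blue) stayed near 0 on both.

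The canonical EGFR transcript has 9905 bases and belongs itself to the long transcripts. Its log2 deviations at high glucose were -0.43, 0.08, 0.14 and 0.21 in replicates 1 to 4, where those of long transcripts as a whole were -0.29, 0.07, 0.07 and 0.16. ERBB2, with 4557 bases, stood in the reverse order, with deviations of 0.10, 0.09, -0.02 and -0.17. An antisense transcript, EGFR-AS1, overlaps EGFR exons on the other strand. ERBB3 (ENSG00000065361.15), the receptor of neuregulins, was near the limit of 1 CPM, with 0.917, 0.828, 1.27 and 1.02 CPM at low and 0.565, 0.877, 0.825 and 0.978 CPM at high glucose. The groups overlapped, and the log2 change of -0.15 (SE 0.0946, 95% interval -0.37 to 0.07) was not past the threshold (limma, adjusted p = 0.243). The 50 and 40 reads of ERBB3 gave a ratio of 0.792, with a 95% counting interval of 0.509 to 1.22.

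ERRFI1 (ENSG00000116285.13), the feedback inhibitor of EGFR and ERBB2, lies on chromosome 1, 8064464 to 8086369, on the minus strand. The low glucose libraries held 12.1, 11.8, 12.0 and 11.7 CPM and the high glucose libraries 28.1, 30.0, 29.2 and 28.4 CPM. The replicates of each group were nearly level, and ERRFI1 had the smallest adjusted p of the 10 members. The mean rose from 11.9 ± 0.182 to 28.9 ± 0.836 CPM (SD, n = 4 each), 2.43-fold, with a log2 change of 1.21 (SE 0.0295, limma, adjusted p = 8.1e-07). An unnamed transcript overlaps its exons on the other strand. Of 11296 genes with a mean of at least 5 CPM, the 5 with the profile most like ERRFI1 over the 8 libraries were ATP6V0A1 (Pearson r 0.9991), VPS26C (0.9991), YWHAG (0.9989), TGFBR1 (0.9988) and PPP1R15B (0.9987). With 2 well separated groups such values are common, and 355 genes reached 0.99.

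ADAM17 (ENSG00000151694.13), also known as TACE, is the main sheddase of HBEGF, AREG, EREG and TGFA precursors and lies on chromosome 2, 9628615 to 9696861, on the minus strand. It was at 82.9, 80.8, 88.1 and 81.6 CPM at low glucose and at 114, 106, 125 and 121 CPM at high glucose. The lowest high glucose library was above the highest low glucose library. The mean rose from 83.4 ± 3.29 to 117 ± 8.01 CPM (SD, n = 4 each), 1.40-fold, and the log2 change was 0.48 (SE 0.0536, limma, adjusted p = 0.000316). IAH1, which overlaps ADAM17 exons on the other strand, was at 49.8 to 54.1 CPM at low and 28.5 to 36.2 CPM at high glucose, opposite to ADAM17.

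**Figure D3:**
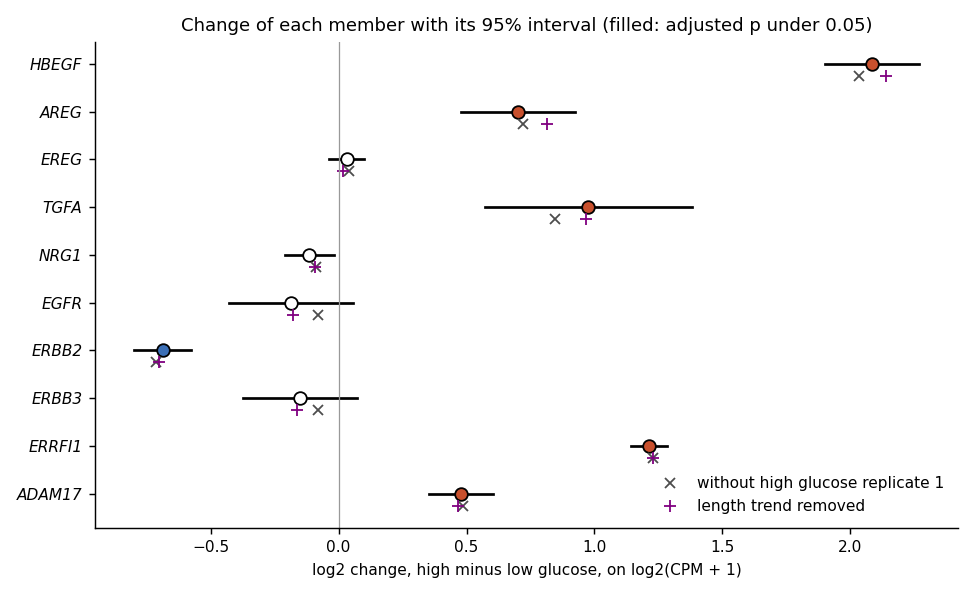
Log2 change of each member between high and low glucose on log2(CPM + 1) (horizontal axis) with its 95% interval. Filled points are past an adjusted p of 0.05 (red higher, blue lower) and open points are not, and small crosses below each point give the value without high glucose replicate 1 (x) and with the length trend removed (+). Both alternatives left HBEGF, ERBB2, ERRFI1 and ADAM17 near their reported values, while EGFR moved from -0.19 to -0.08 without that replicate.

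Divided by the length of the canonical transcript, levels can be compared between genes as far as that transcript is the one expressed. Which transcripts of each gene were present was not measured. At low glucose the order in CPM per kb was EGFR (23.1), ADAM17 (19.0), ERBB2 (14.0), ERRFI1 (3.84) and HBEGF (2.59), and none of these neighbours overlapped between libraries. ERBB3 (0.180), AREG (0.117), TGFA (0.0450) and NRG1 (0.0253) followed, and each of the first 3 overlapped with the next. At high glucose ADAM17 (26.6) stood above EGFR (20.4), and HBEGF (12.4) and ERRFI1 (9.34) had passed ERBB2 (8.59), again with no overlap between neighbours. AREG (0.696) and TGFA (0.335) had moved above ERBB3 (0.144) in mean, although TGFA and ERBB3 overlapped. NRG1 (0.0170) and EREG (0.00481) were last and overlapped as well.

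Summed over all ligand genes of the family, members or not, the ligand transcripts came to 3.26 to 3.89 CPM per kb at low and 13.6 to 16.0 CPM per kb at high glucose, with means of 3.52 ± 0.277 and 14.4 ± 1.09 (SD, n = 4 each). HBEGF made up 70.4% to 78.1% of this sum at low and 84.8% to 87.9% at high glucose. The receptor transcripts summed to 36.7 to 38.0 CPM per kb at low and 25.3 to 30.6 CPM per kb at high glucose. Within them EGFR took 61.1% to 62.4% at low and 63.9% to 73.8% at high glucose, and ERBB2 37.2% to 38.5% and 25.6% to 35.7%. For each 100 receptor transcripts per kb there were 8.82 to 10.5 ligand transcripts per kb at low glucose, a figure that was 63.3 in high glucose replicate 1 and 44.6 to 46.6 in the other 3 high glucose libraries. The lowest receptor sum, 25.3, was also that of high glucose replicate 1, the library in which long transcripts were lowest, and the other 3 were at 30.3 to 30.6 CPM per kb. These are ratios of transcripts, and protein was not measured.

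**Figure D4:**
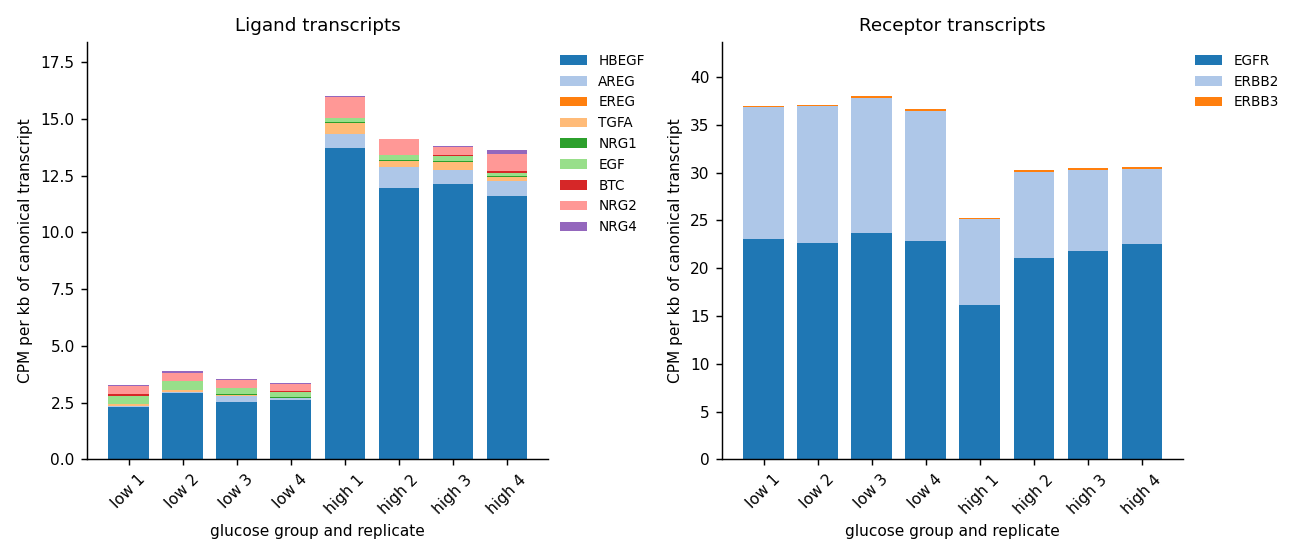
Stacked levels of ligand (left) and receptor (right) transcripts in CPM per kb of canonical transcript (vertical axes, linear from 0) in each of the 8 libraries (horizontal axes), with 1 color per gene. HBEGF filled most of every ligand bar, and the ligand bars rose from at most 3.89 to at least 13.6 while the receptor bars fell from at least 36.7 to at most 30.6.

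The wider pathway was followed in 7 lists of 98 genes, all of which were in the table. Of these, 46 rose, 17 fell and 35 did not pass the test, so that 64.3% were called, against 46.8% of all genes, and 69.2% of the 91 with a mean of at least 1 CPM, against 62.1%. Their median log2 change was 0.195, against -0.00916 over all genes and -0.0417 over genes with a mean of at least 1 CPM. The lists were compiled with earlier results of these libraries known, and they are described and not tested.

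Genes of ligand release moved in both directions, with 4 of 13 higher, 4 lower and 5 not past the test. All 13 had a mean of at least 1 CPM, and the share called, 61.5%, lay near the background of 62.1%. FURIN, a convertase that matures the ADAM17 precursor, rose from 31.4 to 40.5 CPM up to 54.7 to 68.8 CPM (log2 change 0.79, limma, adjusted p = 0.000397). ADAM19 fell (-0.44, adjusted p = 0.00042), and so did RHBDF2 (-0.44, adjusted p = 0.00191), which encodes the iRhom2 partner that carries ADAM17 to the cell surface. Of the inhibitors and turnover factors of the receptors, 5 of 15 were higher, 4 lower and 6 not past the test. Among those with a mean of at least 1 CPM the share called was 64.3%, also near that background. RNF41 (also known as NRDP1), a ubiquitin ligase for ERBB3, fell from 58.8 to 62.1 CPM down to 38.9 to 40.8 CPM (-0.61, adjusted p = 3.88e-06). SOCS5 (0.89, adjusted p = 4.09e-06) and the phosphatase gene PTPN1 (0.42, adjusted p = 8.91e-06), both of which restrain EGFR, rose.

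Of adaptors and RAS exchange factors, 7 of 16 were higher, 1 was lower and 8 did not pass the test. The share called, 50.0%, and that of the members of the list with a mean of at least 1 CPM, 53.3%, lay near and under the background shares of 46.8% and 62.1%. CRKL (0.89, adjusted p = 2.1e-06), CRK (0.64, adjusted p = 1.93e-05) and GRB2 (0.48, adjusted p = 0.000359), which couple phosphorylated receptors to downstream enzymes, rose by limma. Among RAS, RAF, MEK and ERK kinases and their partners, 9 of 17 rose, 3 fell and 5 did not pass. All 17 had a mean of at least 1 CPM, and 70.6% were called, against 62.1% of all such genes. RPS6KA1, encoding a kinase activated by ERK, rose from 24.0 to 27.2 CPM up to 56.7 to 67.5 CPM (1.20, limma, adjusted p = 9.14e-06), and NRAS rose by 0.55 (adjusted p = 2.04e-05). The PI3K and AKT arm was mixed, with 5 of 13 higher, 4 lower and 4 not past the test. All 13 had a mean of at least 1 CPM, and 69.2% were called, against the same 62.1%. The phosphatase genes PHLPP2 (1.10, adjusted p = 4.15e-05) and INPP4B (0.62, adjusted p = 0.0013), which restrain AKT signaling, rose together with PDPK1 (0.59, adjusted p = 0.000134), whose product activates AKT.

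The genes best known as transcriptional output of ERK had the highest median of the 7 lists. Of 17 such genes, 15 rose and none fell, with a median log2 change of 1.09. The 15 that rose were also those whose libraries did not overlap. All 17 had a mean of at least 1 CPM, and 88.2% were called. Of all genes with such a mean, 62.1% were called and 60.0% did not overlap. ETV5, a PEA3 group transcription factor, rose from 14.0 to 15.2 CPM up to 42.3 to 44.4 CPM (1.52, limma, adjusted p = 6.21e-07). SPRY4, a feedback inhibitor of the RAS pathway, rose from 7.17 to 8.58 CPM up to 27.7 to 33.1 CPM (1.86, adjusted p = 3.25e-06). FOSL1, encoding the AP-1 subunit FRA1, rose from 8.86 to 10.1 CPM up to 30.3 to 38.3 CPM (1.81, adjusted p = 4.49e-06). The remaining genes of this list named here were chosen after their values were seen. DUSP4 (2.30, adjusted p = 4.5e-06) and DUSP6 (1.58, adjusted p = 1.24e-05), which encode ERK phosphatases, rose as well. EGR1, an immediate early gene, had a log2 change of -0.20 (adjusted p = 0.196), with 7.73 to 9.00 CPM at low and 5.90 to 8.74 CPM at high glucose, and PHLDA1 had one of -0.03 (adjusted p = 0.488). FOS, also an immediate early gene, rose from 2.82 to 4.01 CPM up to 11.7 to 14.1 CPM (1.69, limma, adjusted p = 1.41e-05).

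**Figure D5:**
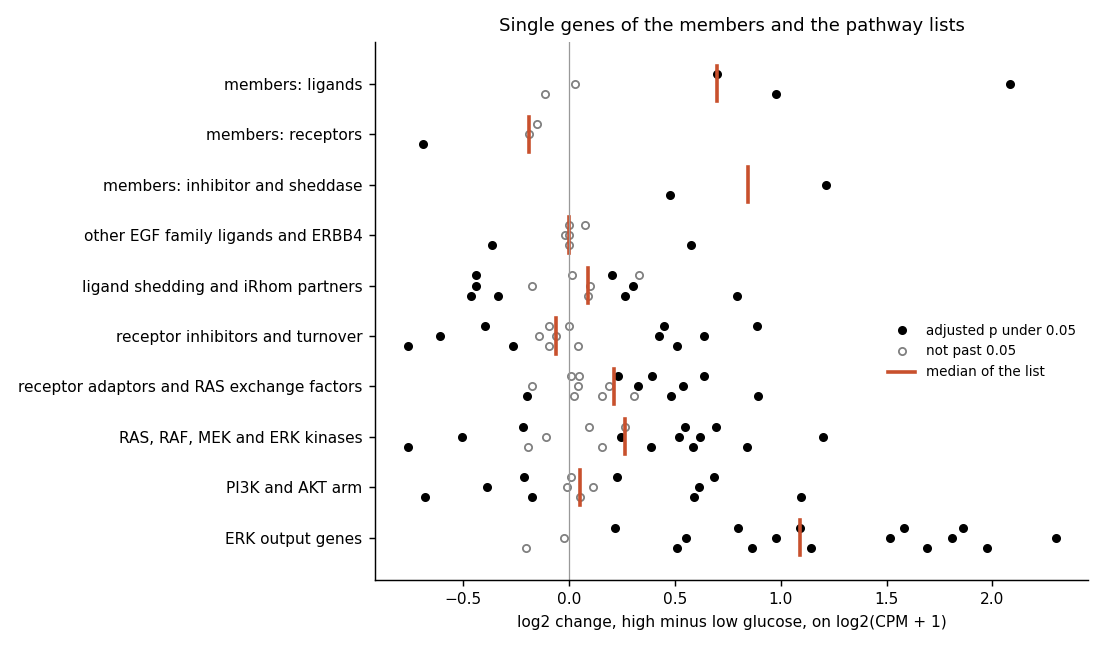
Log2 change of single genes between high and low glucose on log2(CPM + 1) (horizontal axis) in the member groups and the 7 pathway lists (vertical axis). Filled points are past an adjusted p of 0.05, open points are not, and the red bar is the median of each list, which was 1.09 for ERK output genes and between -0.06 and 0.26 for each of the other pathway lists.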

How the data were processed

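RNA-Seq was performed on 8 libraries of MDA-MB-157 cells, 4 per glucose group, with groups and replicate numbers taken from the labels. The authors deposited 1 table of CPM values scaled with TMM factors, and the submitters' processing notes name edgeR and hg38. The study's methods describe, for tumors, alignment with TopHat to hg19, so the build, counter and use of strand for this table are not established. Low values lie on steps of 1 read, but only 72.0% to 73.3% of values under 200 reads were whole to within 0.005 read, so whole reads were not recovered and depths are estimates. Of 21077 lines, 18 Y copies of pseudoautosomal genes, all identical to the X copies, were left out.

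Values were analyzed as log2(CPM + 1) over all 21059 genes without a filter, with limma 3.58.1 in R 4.3.3 (lmFit and eBayes, prior variance trended on the mean, 2-sided tests without covariates) and Benjamini-Hochberg adjustment. The step was tested on simulated data. Read ratios carry exact 95% intervals for counting error only, as reads carried no molecular identifiers. Transcript lengths, overlaps and shared 31-base words came from GENCODE release 44 on GRCh37, and promoters from RefSeq on GRCh38.p14. The members and lists were chosen with earlier results of these data known. Named genes were the 10 members, at most 3 genes per list with the smallest adjusted p among those with a mean of at least 1 CPM, marker genes, and the 5 genes most correlated with the member of smallest adjusted p. A gene that this rule selects is not reported here. Same-numbered low and high glucose replicates did not deviate together (r of 0.0692, -0.0280, 0.0136 and -0.0403), so the numbers were not treated as pairs. Alternatives were 2 other pseudocounts, 2 low-value filters, 3 other scalings, a constant prior variance, a replicate block, voom weights, removal of the length trend and leaving out each library.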

Additional observations from a re-analysis of the deposited data

Results flagged for a closer look

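Dixon's ratio was taken in 20 sets of 4 libraries, 10 members in 2 groups. In 3 sets a library lay far from the others by more than the 95% critical value. Chance gives this in about 1 of 20 sets of continuous values. The flagged sets rest on few whole reads, where that rate does not hold, so their number is not compared with chance. AREG was at 0.340 CPM, 4 reads, in low glucose replicate 3, against 0.0728 to 0.0834 CPM in the other 3 low glucose libraries (ratio 0.961). AREG was at 1.12 CPM, 14 reads, in high glucose replicate 2, against 0.742 to 0.800 CPM in the other 3 (ratio 0.846). EREG was at 0.0889 CPM, 1 read, in high glucose replicate 4 and at 0 in the other 3 (ratio 1). Without low glucose replicate 3 the log2 change of AREG was 0.78, and without high glucose replicate 2 it was 0.64. A step of 1 read is large against such levels, and the cause of these gaps was not tested.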

How the results depend on the processing

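The count of genes called, 9849, ranged from 8120 to 10626 over 19 alternatives and from 8899 to 10156 when a library was left out. The number of members called ranged from 4 to 7. It was 4 with either low-value filter, where AREG, TGFA, EREG, NRG1 and ERBB3 were not tested, and 7 with the length trend removed (EGFR, log2 change -0.18) and without high glucose replicate 4 (NRG1, -0.14). With 1 library left out at a time it was 6 to 7. Directions and calls of HBEGF (2.04 to 2.25), AREG, TGFA, ERBB2 (-0.75 to -0.65), ERRFI1 (1.20 to 1.28) and ADAM17 (0.36 to 0.52) held under every alternative in which they were tested. The size for low genes depended on the pseudocount: AREG was 0.70 as reported, 2.08 with a pseudocount of 0.1 and 2.49 with voom weights, and TGFA was 0.98, 2.34 and 2.71. Other scalings moved the median of genes with a mean of at least 1 CPM by at most 0.0389. With the replicate block, 8921 genes and the same number of members, 6, were called, and the block changed no call among the members. Depth limits EREG, NRG1 and ERBB3, whose levels rest on 0 to 15 reads a library. It also limits AREG, with 1 to 14 reads a library, and TGFA, with 1 to 29.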
